A study of Mus musculus with 14 samples.

Results

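Among the chromatin regions accessible in mouse embryonic stem (ES) cells, 5972 distal regions carried a peak before GATA6 was induced and had none in either library 2 h later. They were selected on peak calls alone: a region had its midpoint over 1 kb from every protein-coding transcription start site (TSS), was called in both 0 h libraries, in neither 2 h library and in neither 48 h library. These regions made up 4.90% of 121891 merged autosomal regions, 18.4% of the 32434 distal regions called in both 0 h libraries, and 31.9% of the 18742 distal regions lost by 48 h. The remaining 12770 distal regions lost by 48 h kept a call in at least 1 library at 2 h and are termed regions lost later.

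The cells were KH2 ES cells, recorded as C57BL/6, that carry the TRE:GATA6-DSREd2 transgene, so every group shares the transgene and only doxycycline (Dox) turns it on. At 0 h the cells had been kept in 2i medium with LIF and received no Dox, while every later group was in serum medium, also with LIF, that contained 1 µg/mL Dox. Dox was withdrawn after 12 h, so the groups of 16, 24 and 48 h had spent their last hours without it. ATAC-seq, in which a transposase inserts adapters into open DNA, was run on 50000 cells per library with 2 libraries at each of 7 time points. The medium change and the induction occurred together and no library came from uninduced cells in serum, so their contributions at 2 h cannot be told apart. Whether the libraries of a time point came from separate cultures is not stated in the labels, so the spread between them may be technical. The tests below treat each library as a unit, including libraries that share a time point, so their p-values may rest on technical spread.

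Distal accessible regions are mostly enhancers, short stretches of DNA that are kept free of nucleosomes by bound transcription factors. In naive ES cells many are held open by OCT4 and SOX2, which bind a composite site together, and by ESRRB, KLF factors, TFCP2L1 and STAT3. TCF and LEF factors carry the Wnt signal to DNA. TCF7L1, the main one in ES cells, represses its targets until β-catenin accumulates, and the GSK3 inhibitor of 2i medium stabilises β-catenin. The second inhibitor of 2i medium blocks MEK, the kinase upstream of ERK, and AP-1 factors such as FOS and JUN are classical products of ERK and serum signalling.

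To show what the lost sequences look like, the central 200 bp of the strongest lost region holding each of 3 motifs is given below, on the plus strand of GRCm38 with the motif in capitals. The TCF core ATCAAAG, or its reverse complement, is shown because its share differed most from that of other lost regions among the motifs that were more common here. The composite OCT4-SOX2 motif TTGTNATGC and the ESRRB and NR5A2 motif CAAGGTCA are shown for the factors that define naive cells. All 3 regions were without a call from 2 h onwards. The first is intergenic, the second lies in an intron of 1700047F07Rik and the third in an intron of Nmnat2, 1907 bp from its TSS.
TCF core, chr9:23045512-23045711: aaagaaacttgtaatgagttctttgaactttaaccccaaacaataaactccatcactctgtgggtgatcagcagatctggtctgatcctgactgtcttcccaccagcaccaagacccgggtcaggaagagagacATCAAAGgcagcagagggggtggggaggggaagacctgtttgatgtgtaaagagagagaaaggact
OCT4-SOX2 composite, chr4:107734173-107734372: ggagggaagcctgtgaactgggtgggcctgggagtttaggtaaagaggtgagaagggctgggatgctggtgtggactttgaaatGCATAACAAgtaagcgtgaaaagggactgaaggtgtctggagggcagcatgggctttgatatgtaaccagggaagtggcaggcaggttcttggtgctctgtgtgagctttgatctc
ESRRB and NR5A2, chr1:153031367-153031566: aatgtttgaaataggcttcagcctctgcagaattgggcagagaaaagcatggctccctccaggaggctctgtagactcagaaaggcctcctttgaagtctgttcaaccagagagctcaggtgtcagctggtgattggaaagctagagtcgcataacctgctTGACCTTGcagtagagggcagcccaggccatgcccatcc

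The OCT4-SOX2 example also held 2 TCF core matches. To show how the TCF core varies in its surroundings, 27 bp around it are given for 5 strong lost regions that were never called again, each read 5′ to 3′ on the strand that carries ATCAAAG, with the core in capitals. These 5 were chosen after their values were seen.
chr9:23045636-23045662, plus strand, intergenic: gaagagagacATCAAAGgcagcagagg
chr16:35484268-35484294, plus strand, intron of Pdia5: agacaaagacATCAAAGggctagagga
chr4:107734300-107734326, minus strand, intron of 1700047F07Rik: ctggttacatATCAAAGcccatgctgc
chr7:133441917-133441943, plus strand, intergenic: gaataaagacATCAAAGgagccagggt
chr1:135807877-135807903, minus strand, intron of Tnni1: tgtagggaggATCAAAGgattcaactg

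Because calls at 0, 2 and 48 h chose the regions, values at those times are given without a test. Of all 98941 distal regions, 6.96% were called in both 0 h and neither 2 h library, and 18.9% in both 0 h and neither 48 h library. The requirement of no call at 2 h decided membership. A further 2872 distal regions that otherwise met the rule had 1 call at 2 h, and 9898 had 2. Of distal regions called in 0 h replicate 1, 15.7% were missing from 0 h replicate 2, against 35.8% and 32.8% from the 2 h libraries. The same shares for 0 h replicate 2 were 19.5% against 37.0% and 33.9%. With a single library per time point the rule would have taken 11551 regions from replicate 2 and 11550 from replicate 1. At the distance threshold, the nearest regions inside lay 1001, 1008 and 1010 bp from the TSSs of Tdh, Rps21 and Tnrc18. The nearest outside lay 998, 994 and 993 bp from those of Klf6, Capns1 and Coro1c, among 435 otherwise equal regions within 1 kb.

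To determine what became of the lost regions, their calls were followed in the 8 libraries of 4, 8, 16 and 24 h, which the rule had not used. The rule had, however, left out regions called at 48 h. Of 6889 distal regions called in both 0 h and neither 2 h library, 588 were called in both 48 h libraries. Most of the regions that the rule kept stayed absent. Of the 5972 regions, 4216 (70.6%) were called in none of the 8 libraries, and 1756 (29.4%) were called in at least 1, against 74.4% of all distal regions. Another 582 regions were called in 1 library and 402 in 2, and 45 regions (0.754%) were called in all 8. Among regions lost later, 15.5% were called in none of the 8 and 13.02% in all 8.

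**Figure D1:**
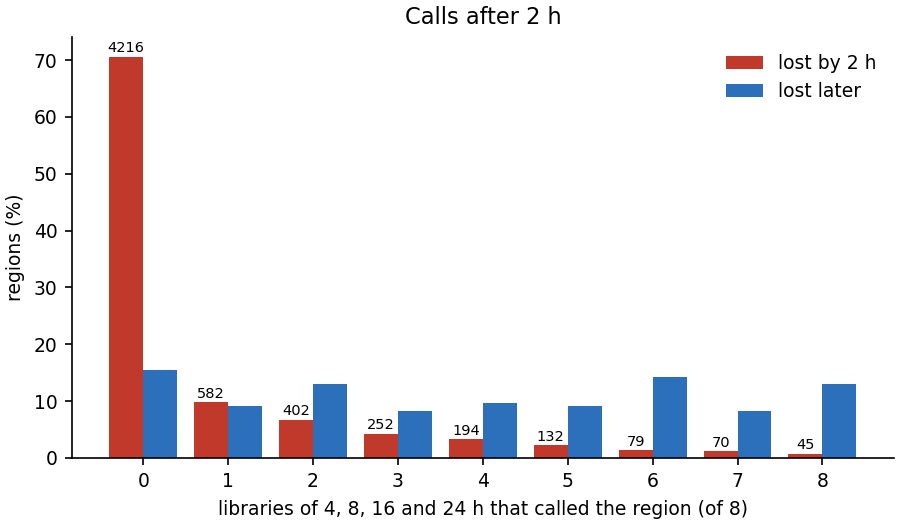
Share of regions (y axis, %) by the number of the 8 libraries of 4, 8, 16 and 24 h that called them (x axis), for the 5972 distal regions lost by 2 h (red, with their number above each bar) and the 12770 lost later (blue). The red bar at 0 holds 70.6% of its regions and the blue bar at 0 holds 15.5%.

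The share of the lost regions that were called was small at each time point and did not fall steadily. At 4 h it was 10.5% and 12.8% in the 2 libraries (11.7% ± 1.62, SD, n = 2). At 8 h it was 7.90% and 7.97% (7.94% ± 0.0474, SD, n = 2). At 16 h, after Dox removal, it was 12.96% and 15.7% (14.3% ± 1.95, SD, n = 2), and at 24 h it was 6.82% and 7.35% (7.08% ± 0.379, SD, n = 2). The 16 h libraries were thus the highest and the 24 h libraries the lowest, and no time point overlapped another, although the lower 16 h library was close to the higher 4 h library. The share differed over the 4 time points by more than the spread between libraries (F = 13.8, exact one-sided permutation p = 0.00952, the smallest the design allows; Benjamini-Hochberg adjusted p = 0.0127 over 4 tests). With a replicate block F was 35.2 and the adjusted exact permutation p was 0.0556, at the smallest p that the block allows. The libraries of 4 and 8 h, in Dox, had 9.81% ± 2.36 (SD, n = 4) and those of 16 and 24 h, after its removal, 10.7% ± 4.35 (SD, n = 4). That difference of -0.904 points was not beyond the spread of the 8 libraries (exact two-sided permutation p = 0.800, adjusted p = 0.800). This spread includes the differences between the 2 time points on each side, so the test says little about Dox removal. Time and Dox removal cannot be told apart in this design.

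Calls in both libraries of a time point, a stricter measure, gave the same order. Both libraries called 361 of the lost regions (6.04%) at 4 h, against 35.4% of all distal regions, and 268 (4.49%) at 8 h, against 33.3%. At 16 h 613 regions (10.3%) were called in both, against 36.5%, and at 24 h 266 (4.45%), against 30.1%. All 4 shares of the lost regions were below those of distal regions at large. The all-distal share called per library was itself highest at 16 h, with 43.6% ± 3.08 there and 40.4% ± 0.635 at 8 h (SD, n = 2 each), and its part in the 16 h value of the lost regions was not tested. When each list was reduced to its 50000 highest-scoring peaks the lost regions went from 9.03% at 4 h to 6.59% at 8 h, then to 12.5% at 16 h and back to 7.32% by 24 h, so 16 h stayed highest but 8 h and not 24 h was lowest.

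Some calls that were present at 16 h had been absent at 8 h, though not always at 4 h. At 16 h 306 lost regions (5.12%) were called in both libraries after being absent from both at 8 h, and 51 (0.854%) showed the reverse. Among regions lost later, 531 (4.16%) appeared in this way and 641 (5.02%) disappeared. Of the 613 lost regions called in both 16 h libraries, 272 were absent from both 24 h libraries and 198 were called in both. In all, 505 lost regions were called at 16 or 24 h and at neither 4 nor 8 h, 544 at 4 or 8 h and at neither 16 nor 24 h, and 707 at both.

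**Figure D2:**
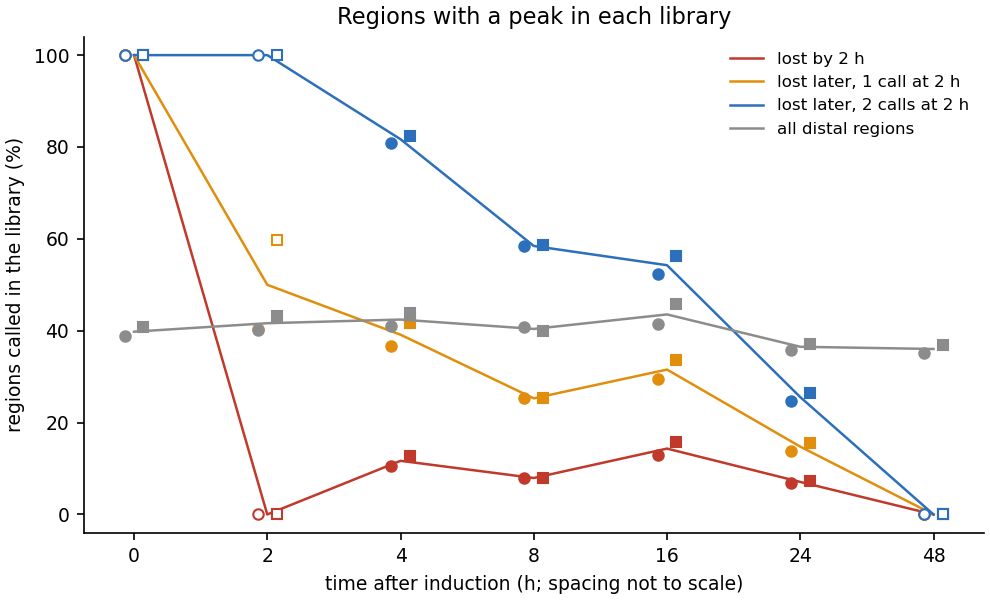
Share of regions with a peak (y axis, %) in each library at 7 time points (x axis, h after induction, equal spacing); circles are replicate 1, squares replicate 2, lines join the means of 2 libraries, and hollow symbols mark calls that the rule used. Regions lost by 2 h (red) lay between 6.82% and 15.7% from 4 to 24 h, below regions lost later with 1 (orange) or 2 (blue) calls at 2 h in each of these libraries; all distal regions are grey.

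Regions lost by 2 h were called less often than regions lost later in 8 of 8 libraries. The 2 groups were split by their calls at 2 h, so a lower share in later libraries follows in part from the selection. Regions lost later started at 72.1% ± 1.67 for 4 h, passed through 51.0% ± 0.122 for 8 h and 49.2% ± 2.87 for 16 h, and ended on 23.1% ± 1.29 for 24 h (SD, n = 2 each). The mean difference was -38.6 percentage points (exact two-sided sign-flip permutation p = 0.00781, the smallest the design allows; adjusted p = 0.0127). It narrowed from -60.4 ± 0.0446 points at 4 h and -43.1 ± 0.0745 at 8 h to -34.8 ± 0.915 at 16 h and finally -16.0 ± 0.911 by 24 h (SD, n = 2 each), a dependence on time beyond the spread between libraries (F = 1625, exact one-sided permutation p = 0.00952, adjusted p = 0.0127). Both groups were selected to have no call at 48 h, so the gap had to close by then. The test cannot tell its narrowing apart from that selection. Regions with 1 call at 2 h lay between those without a call and those with 2, with 39.1% ± 3.55 at 4 h but only 14.8% ± 1.23 by 24 h (SD, n = 2 each).

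Peaks of the regions lost by 2 h were weak at 0 h. Each peak's deposited score was turned into its percentile within its own list. The lost regions had a median percentile of 32.4 and 33.0 in the 2 libraries at 0 h, against 58.84 and 59.99 for regions lost later and 46.1 and 45.8 for all called distal regions. The 2 groups overlapped widely, with quartiles of the mean 0 h percentile at 19.7 and 47.7 for regions lost by 2 h and at 38.5 and 76.7 for regions lost later. Its median was 31.9 for regions lost by 2 h and 53.1 for distal regions called in both 0 h libraries. Weak peaks were not particular to these regions. The median was 29.1 in the 588 regions absent at 2 h but called in both 48 h libraries, and 42.2 in regions lost later with 1 call at 2 h. When regions lost by 48 h were divided into 5 equal classes of 0 h percentile, the regions lost by 2 h made up 59.2% of the weakest class and 4.77% of the strongest. Yet the difference in calls after 2 h remained within classes. In the weakest class 9.94% ± 1.63 of regions lost by 2 h and 57.2% ± 3.56 of those lost later were called at 4 h, and in the strongest class 14.5% ± 0 and 87.2% ± 0.713 (SD, n = 2 each). Weighting the regions lost later to the same classes left a difference of -32.5 points (exact two-sided sign-flip permutation p = 0.00781, adjusted p = 0.0127). The classes use 0 h scores and leave the split by calls at 2 h in place. When a lost region was called again, its peak was also weak, with a median percentile of 14.5 ± 0.745 for the 4 h calls and 25.2 ± 0.374 for the 16 h calls (SD, n = 2 each).

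Base composition marked the regions that reappeared. Over the central 200 bp, the median GC content was 49.0% for regions lost by 2 h, 48.5% for regions lost later, 49.5% for all distal regions and 50.5% for the distal regions called in both 0 h libraries, from which they were drawn. They made up 23.5% of those 0 h regions with under 40% GC and 6.78% of those with 60% or more, a share that fell from class to class. Of the lost regions themselves, 9.12% of regions with under 40% GC were called again between 4 and 24 h (27 of 296), 22.9% of those with 45 to 50% (449 of 1957), 49.2% of those with 55 to 60% (384 of 780) and 67.7% of those with 60% or more (109 of 161). The same share in regions lost later rose from 75.1% to 94.5% between the lowest and the highest class, and in all distal regions from 66.3% to 89.0%. In regions with 60% GC or more, 44.4% ± 3.07 of those lost by 2 h were called at 16 h and 27.6% ± 1.32 at 8 h, whereas in regions under 40% GC the values were 3.04% ± 0.956 and 1.35% ± 0 (SD, n = 2 each). The 0 h percentile went slightly the other way, with a median of 33.6 in the lowest GC class and 26.5 in the highest. The median GC content of all called distal regions was 50.5% at 0 h, 50.0% at 2 and 4 h, 50.5% at 8 h and 51.0% at 16 and 24 h in both libraries of each time point, and its part in the calls was not tested.

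**Figure D3:**
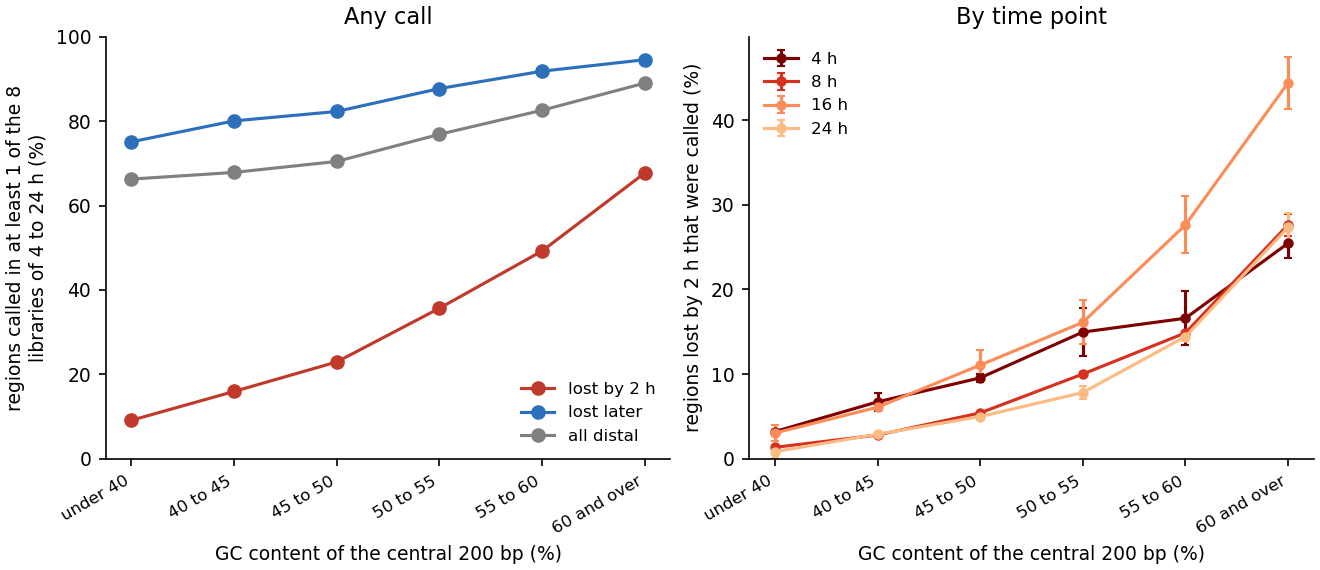
Left, share of regions called in at least 1 of the 8 libraries of 4 to 24 h (y axis, %) by GC content of the central 200 bp (x axis, 6 classes) for regions lost by 2 h (red), lost later (blue) and all distal regions (grey). Right, share of the regions lost by 2 h that were called at each time point (mean ± SD of 2 libraries). The red line on the left runs from 9.12% to 67.7%, and on the right 16 h reaches 44.4% in the highest class.

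Sequence motifs, which the rule did not use, were sought on both strands of the central 200 bp of each region, and shares carry 95% Wilson intervals that cover counting error only. The TCF core ATCAAAG was present in 523 of the 5972 regions lost by 2 h, 8.76% (95% interval 8.07 to 9.50), against 4.00% of all distal regions. Its share was 5.02% in distal regions called in both 0 h libraries. It was present in 5.75% (5.16 to 6.40) of distal lost regions first absent at 4 or 8 h, in 5.37% (4.71 to 6.10) of those first absent at 16 or 24 h, in 3.87% (3.26 to 4.59) of those first absent at 48 h and in 2.73% (2.40 to 3.11) of distal regions called in all 14 libraries. The share was highest in the regions lost first, and the intervals of the 4 or 8 h and the 16 or 24 h classes overlapped. Against all regions lost later, at 5.15%, the difference was 3.60 points (95% interval 2.79 to 4.42). With regions taken from 1 replicate number alone it was 2.43 points (replicate 2) and 1.98 points (replicate 1). The reversed sequence GAAACTA, a control of the same composition, differed by 0.0417 points (-0.385 to 0.468).

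The TCF share was highest where both 2 h calls were missing. Among distal regions called in both 0 h libraries, whatever their call at 48 h, it was 8.36% (7.73 to 9.04) with no call at 2 h, 4.16% (3.61 to 4.79) with 1 call and 4.10% (3.85 to 4.38) with 2. In the 588 regions that were absent at 2 h but called in both 48 h libraries it was 5.44% (3.88 to 7.58). Within the regions lost by 2 h it rose with the 0 h percentile, from 6.26% in the weakest of 5 classes to 17.3% in the strongest, where regions lost later had 4.12% and 7.14%. In each of 6 GC classes it was also above that of regions lost later, for example 10.2% against 6.16% at 45 to 50% GC and 7.63% against 4.03% at 50 to 55% GC. The longer pattern AGATCAAAG, chosen after the shorter one was seen, was found in 1.81% (1.50 to 2.18) of regions lost by 2 h, 0.838% (0.694 to 1.01) of those lost later and 0.493% of all distal regions.

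The core lay towards the middle of these regions. Within 40 bp of the midpoint there were 0.515 matches per kb of sequence in regions lost by 2 h, and 0.294 per kb between 100 and 200 bp away, a ratio of 1.75. The ratio was 1.35 for regions lost later and 1.24 for all distal regions. Midpoints come from peaks merged over all 14 libraries, so they depend on which libraries called a region. The part of this in the ratios was not tested. A match was preceded by AG in 20.4% of 540 cases in regions lost by 2 h, in 16.0% of 682 in regions lost later and in 12.3% of 4062 in all distal regions. Most regions had a single match, and 17 had 2.

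**Figure D4:**
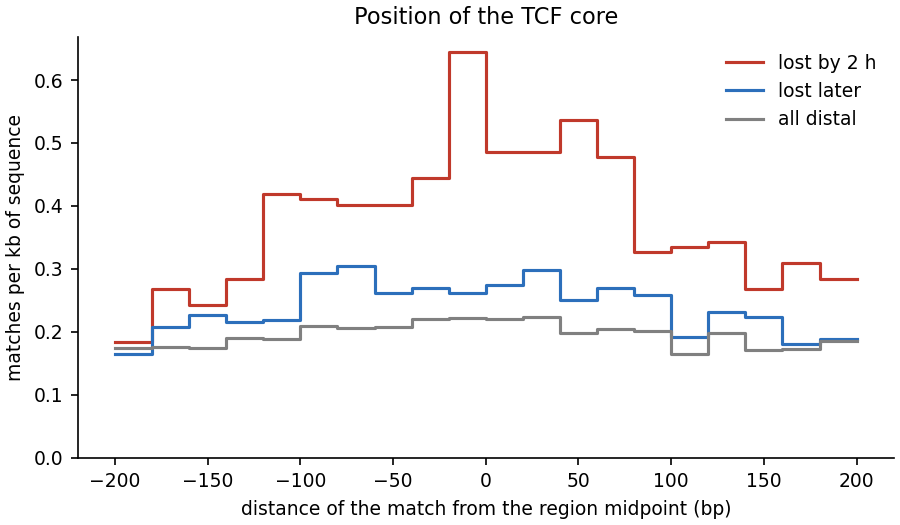
Matches to the TCF core per kb of sequence (y axis) in bins of 20 bp by distance from the region midpoint (x axis, bp) for regions lost by 2 h (red), lost later (blue) and all distal regions (grey). The red line lies above the other two throughout and averages 0.515 per kb within 40 bp of the midpoint.

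Motifs of pluripotency factors were shared with regions lost later. The OCT4-SOX2 composite was present in 2.16% (1.82 to 2.56) of regions lost by 2 h and 2.54% (2.28 to 2.82) of those lost later, against 1.11% of all distal regions. The ESRRB and NR5A2 motif, read by orphan nuclear receptors, was present in 4.81% (4.29 to 5.38), 4.34% (4.00 to 4.71) and 2.69%. The octamer ATGCAAAT of POU factors was present in 4.30%, 4.82% and 2.63%, and the KLF motif GGGNGTGG in 15.8%, 15.4% and 14.1%. The intervals of the first 2 groups overlapped for each of these motifs, while both lay above the all-distal share for each but were near it for KLF. Some 4.14% of regions lost by 2 h held the TFCP2L1 half-site TNNAACCAG, against 3.21% of all distal regions. SOX (AACAATGG, 1.86% against 1.83%), STAT (TTCCNGGAA, 1.14% against 1.16%) and PRDM14 (GGTCTCTAA, 0.151% against 0.167%) were near the all-distal shares. At least 1 of these 8 pluripotency motifs was found in 1850 regions lost by 2 h (31.0%, 29.8 to 32.2), in 30.3% of regions lost later and in 24.7% of all distal regions. Of distal regions called in both 0 h libraries, 27.9% held at least 1. In those 0 h regions the OCT4-SOX2 composite was present in 1.70%, the ESRRB and NR5A2 motif in 3.53%, the octamer in 3.62% and KLF in 15.3%.

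AP-1 and GATA motifs were less frequent than in regions lost later and in distal 0 h regions at large. An AP-1 site, TGACTCA or TGAGTCA, was present in 68 regions lost by 2 h (1.14%, 0.899 to 1.44), in 7.51% (7.07 to 7.98) of regions lost later and in 10.4% of all distal regions. Of distal regions called in both 0 h libraries, from which the lost regions were drawn, 5.36% held it. Distal regions gained at 2 h held it in 40.8%. The difference from regions lost later was -6.37 points (-6.90 to -5.84), and the reversed control differed by -0.330 points (-0.874 to 0.214). Among the 0 h distal regions the AP-1 share was 1.09% with no call at 2 h, 2.51% with 1 call and 7.33% with 2 calls. A GATA site, AGATAA or AGATAG or TGATAA or TGATAG, was present in 17.5% (16.6 to 18.5) of regions lost by 2 h, 25.5% (24.7 to 26.2) of those lost later and 39.8% of all distal regions. The permuted control, AAGTAA or AAGTAG or TAGTAA or TAGTAG, was present in 23.9%, 23.4% and 22.9%. In distal regions called in both 0 h libraries the GATA share was 24.4% and the permuted share 22.0%. GATA was the less frequent of the pair in regions lost by 2 h, and also in regions first absent at 4 or 8 h (21.5% against 25.6%) and in regions lost later with 1 call at 2 h (21.5% against 23.4%). The CTCF core AGNNGGCGC was found in 0.787% of regions lost by 2 h, 1.12% of those lost later and 7.17% of distal regions called in all 14 libraries. TEAD (ACATTCC) was found in 3.43% against 5.47% of all distal regions, ETS (CCGGAAGT) in 0.318% against 0.466%, and ZIC (CAGCAGG) in 11.8% against 12.1%. Strings as short as these occur by base composition, so a match is not evidence of binding.

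**Figure D5:**
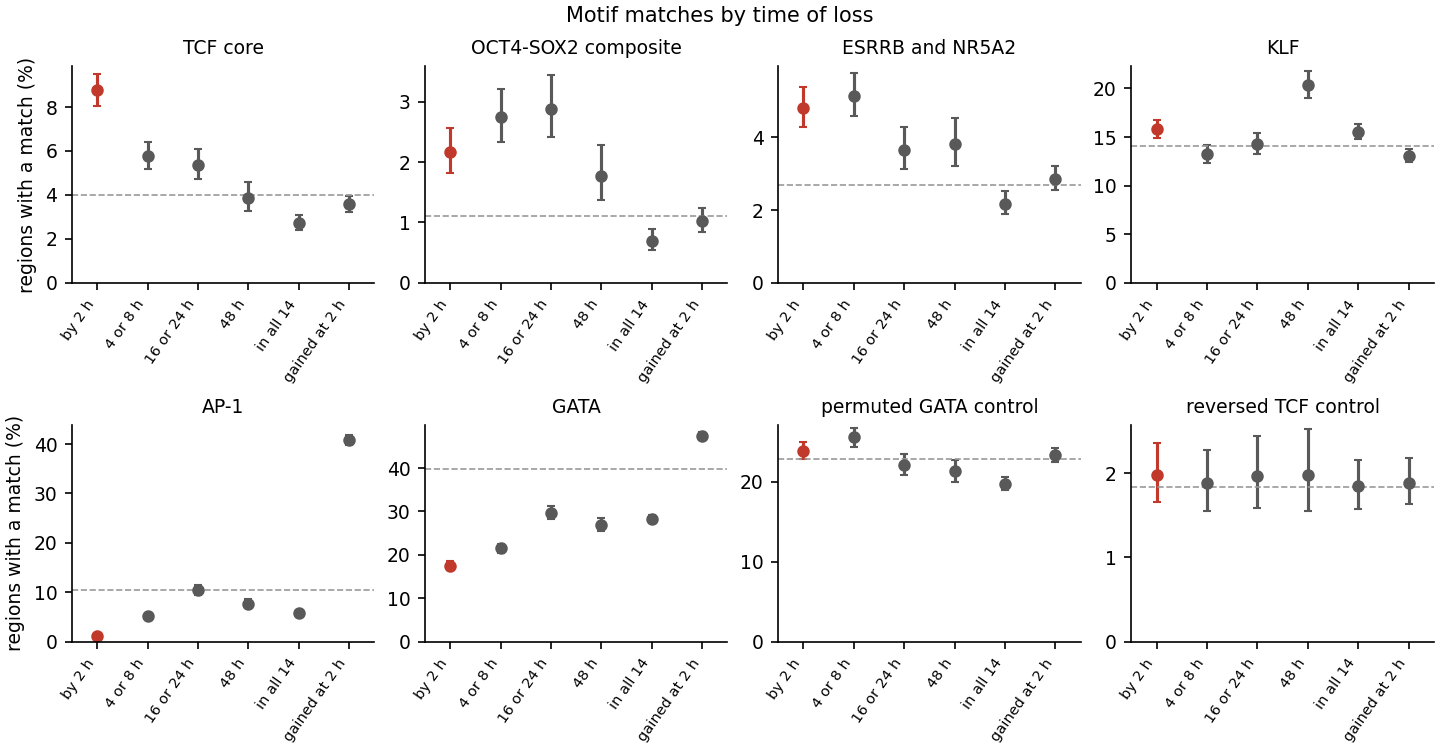
Share of distal regions with a motif match in the central 200 bp (y axis, %, with 95% Wilson intervals) by time of loss, for regions called in all 14 libraries and for regions gained at 2 h (x axis); the dashed line is the share in all distal regions. The regions lost by 2 h (red) are highest for the TCF core at 8.76% and lowest for AP-1 at 1.14% and GATA at 17.5%.

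Motifs also divided the lost regions by whether they were called again, in libraries the rule had not used. Those with a TCF core were called less often than those without it in 8 of 8 libraries, by 3.42 to 6.34 percentage points. At 16 h the values were 8.99% ± 1.35 with the core and 14.9% ± 2.01 without (SD, n = 2 each). Over all 8 libraries 103 of 523 regions with the core (19.7%) were called at least once, against 30.3% without it. Regions with the core were called again less often in 5 of 6 GC classes, for example 27.8% against 36.3% at 50 to 55% GC, and not in the class under 40% GC, with 12.1% (4 of 33) against 8.75%. Regions with an OCT4-SOX2 composite were also called less often in 8 of 8 libraries, with 5.43% ± 0 against 14.5% ± 2.00 at 16 h (SD, n = 2 each). Of these, 20 of 129 (15.5%) were called at least once, against 29.7% without it. The share was lower with it in each GC class that held it, for example 20.0% against 35.9% at 50 to 55% GC. For the ESRRB and NR5A2 motif the share was lower in 8 of 8 libraries, and 60 of 287 (20.9%) were called at least once, against 29.8% without it. It was also lower in each of the 6 GC classes, for example 23.9% against 36.3% at 50 to 55% GC.

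The opposite held for KLF and GATA. Regions with a KLF motif were called more often than those without it in 8 of 8 libraries, with 23.2% ± 2.39 against 12.7% ± 1.87 at 16 h (SD, n = 2 each). In the 613 lost regions called in both 16 h libraries the KLF share was 28.2% (24.8 to 31.9), against 13.1% (12.2 to 14.2) in the 4216 never called again. The KLF motif is itself rich in G, but called-again shares were higher with it in 5 of 6 GC classes, for example 64.4% against 43.9% at 55 to 60% GC. The exception was the class under 40% GC, where 1 of 14 regions with it was called again. Regions with a GATA site were likewise higher in 8 of 8 libraries, with 19.02% ± 1.89 against 10.1% ± 1.56 at 4 h (SD, n = 2 each), and in each of the 6 GC classes, for example 35.0% against 20.0% at 45 to 50% GC. For AP-1, with 68 regions, the sign varied and 5 of 8 libraries were higher.

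The position of the lost regions was close to that of regions lost later. By the annotation at the midpoint, 3160 (52.9%) were intronic, 2442 (40.9%) intergenic and 370 (6.20%) exonic, against 52.3%, 41.7% and 6.01% of regions lost later and 51.0%, 42.2% and 6.79% of all distal regions. The median distance to a protein-coding TSS was 21373 bp, against 21360 bp for regions lost later and 18483 bp for all distal regions. No such TSS lay within 50 kb of 1852 regions (31.0%), against 30.3% and 26.1%. Merged regions were 509 bp wide in the median, against 635 bp for regions lost later, and repeats masked 14.4% of the central 200 bp. Widths depend on how many libraries called a region, because peaks were merged over all 14. Of the distal 0 h regions within 10 kb of a lost region, 20.3% were also lost by 2 h, against 18.7% around regions lost later. The share was 17.5% around distal 0 h regions in general and 15.3% around those called in all 14 libraries. The regions lost by 2 h made up between 15.0% of distal 0 h regions, on chromosome 19, and 20.9%, on chromosome 14.

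The strongest regions that were never called again had 0 h percentiles near the top of both lists. The first, chr9:23045135-23046088, intergenic and 177464 bp from the nearest TSS, had percentiles of 94.8 and 98.1 in the 0 h libraries. An intronic region of Tspan18, a tetraspanin gene, at chr2:93252615-93253169, had 94.1 and 97.2. A region in Pdia5, which encodes a protein disulfide isomerase, at chr16:35483998-35484757, had 93.8 and 94.3. Others were intronic in Dop1b (chr16:93807828-93808278), in Grm3 (chr5:9557567-9558240) and in 1700047F07Rik (chr4:107734095-107734451), or intergenic 33020 bp from Gtdc1 (chr2:44537994-44538659). Of the 8 strongest regions, 3 held a TCF core.

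The strongest of the 45 regions called in all 8 libraries of 4 to 24 h lay in an intron of Znrf3, at chr11:5411560-5412066 and 30073 bp from its TSS. Znrf3 encodes a membrane ubiquitin ligase that removes Wnt receptors and is itself a Wnt target. This region had 0 h percentiles of 87.8 and 88.7, was missing from both libraries at 2 h and at 48 h, and held a TCF core. The next 5 were weaker, with mean percentiles of 61.5 to 66.7. They lay near Dynlt1b (chr17:6399492-6400196), in Fstl4 (chr11:53009405-53010069), near Plxna1, a semaphorin receptor gene (chr6:89291424-89292011), in Dis3l2, an exoribonuclease gene (chr1:86719128-86719813), and near Gpr37l1 (chr1:135174514-135175030). A GATA site was present in the regions of Dis3l2 and Gpr37l1.

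Pluripotency genes were not singled out by number. Of 75 distal 0 h regions within 50 kb of naive pluripotency genes, 14 (18.7%) were lost by 2 h, and of 34 near core pluripotency genes 5 (14.7%), against 17.0% of all 24210 distal 0 h regions within 50 kb of a gene. By 48 h, 62.7% and 61.8% of these regions were lost, against 53.8% of all. Of the 16 regions named here, 10 were never called again, against 70.6% of all regions lost by 2 h. The strongest lay in an intron of Nr5a2, a nuclear receptor that helps to maintain Pou5f1 expression, at chr1:136951207-136951754 and 1919 bp from its TSS, with 0 h percentiles of 86.1 and 78.8. A second Nr5a2 region, intergenic at chr1:137002873-137003871, had 74.9 and 71.6. Both were without calls from 2 h onwards.

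Near Gbx2, a homeobox gene of naive cells, the region at chr1:89935715-89936286 had percentiles of 68.3 and 74.5 and was called again in 1 library, at 16 h. In Dppa2, an intronic region at chr16:48308835-48309427 and an intergenic one at chr16:48355694-48356140 were not called again. The Tfcp2l1 intronic region at chr1:118645685-118646145 had 1 call at 8 h and 1 at 16 h. The region 20530 bp from Nanog, at chr6:122686759-122687159, had percentiles of 49.0 and 47.2 and was called again in 1 library at 8 h and, before that, in both at 4 h. The region 5194 bp from Pou5f1, which encodes OCT4, at chr17:35500657-35500991, had 45.2 and 23.9 and did not return. Nor did that of Sall4 (chr2:168807035-168807576), that of Nodal (chr10:61405782-61406536), which held a TCF core, or that of Klf4 (chr4:55519670-55520028). Klf5 had 3 regions, at chr14:99278464-99278786, chr14:99334021-99334471 and chr14:99320716-99321105, and the last was called again from 8 to 24 h. Klf5 is also on the study's list of primitive endoderm (PrE) genes, so its 3 regions count in both lists. Zfp281 (chr1:136670526-136670941) and Gdf3 (chr6:122607844-122608274, exonic) had calls at 8 and 16 h, and Zfp281 also in both libraries at 24 h.

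Among the other gene lists, the share of distal 0 h regions lost by 2 h was 19.6% for Wnt targets (11 of 56), 14.3% for ERK feedback and immediate-early genes (10 of 70), 10.3% for the LIF and STAT3 pathway (4 of 39) and 6.45% for formative and primed epiblast genes (2 of 31). It was 22.7% for primitive endoderm genes (10 of 44), 17.4% for trophectoderm genes (8 of 46) and 27.3% for fibroblast genes (3 of 11), the last 2 lists standing for cell types that the culture should not hold. The study's PrE list had 16.4% (161 of 982) and its Epi list 13.2% (91 of 692). The Epi list was thus below the 17.0% of all and the PrE list near it, while the other lists rest on at most 70 regions each. Of the 11 regions near Wnt targets, 8 were called again between 4 and 24 h, against 31.7% of the 4120 lost regions within 50 kb of a gene. They include Rnf43, the partner of Znrf3, at chr11:87677527-87678368 with both libraries at 4 and at 8 h, and Lef1, a TCF family gene, at chr3:131156445-131156901 with a call in at least 1 library at each of 4, 8, 16 and 24 h. The region 18151 bp from Axin2, a negative feedback gene of the pathway, at chr11:108961460-108962084, was not called again. A nearer one in an Axin2 intron, 5157 bp from the TSS at chr11:108948553-108949003, was called in 1 library at 8 h and in both at 16 h. These regions were picked after their values were seen.

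The lost regions were spread over many genes. The 4120 regions within 50 kb of a TSS were assigned to 3185 genes, of which 77.6% had a single one. The genes with the most, 2 with 6 regions and 14 with 5, included Etl4 (6 of its 22 distal 0 h regions) and Tenm4, which encodes a teneurin (6 of 26). The 8 of those with 5 that had the highest mean 0 h percentiles were Pou2f1 (5 of 5), Snd1 (5 of 14), 5730522E02Rik (5 of 11), Elmo1 (5 of 15), Mgat5 (5 of 7), Tgfbr3 (5 of 8), Zfhx3 (5 of 11) and Mtss1 (5 of 14). Among these 10 genes, Pou2f1, which encodes the octamer-binding factor OCT1, was the one whose distal 0 h regions were all lost by 2 h, and 1 of its 5 regions was called again. In Tenm4 and Tgfbr3 none was called again.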

How the data were processed

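KH2 ES cells were profiled by ATAC-seq at 7 time points with 2 libraries each. The authors processed reads with the ENCODE ATAC-seq pipeline and deposited 1 peak list per library. The names of the lists refer to pseudoreplicates, an irreproducible discovery rate (IDR) step and removal of blacklisted positions. Each deposited peak has 1 unnamed value, taken as a score of the authors with no stated scale and used only as a percentile within its list. The lists held between 55588 and 65073 peaks and no read counts, so depth is unknown from them and an absent call may be accessibility under the threshold. The processing notes name mm10 and GRCm38, and 0 peaks ended past their chromosome in GRCm38, which was used with GENCODE M21.

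Autosomal peaks that overlapped by 1 bp or more were merged, and any overlapping peak counted as a call in that library. TSSs were those of transcripts of protein-coding genes, and regions were assigned to the nearest within 50 kb. Motifs and GC content were read from the central 200 bp in the RefSeq sequence of GRCm38. Shares of regions called were compared over the 8 libraries of 4 to 24 h by exact permutation tests, with Benjamini-Hochberg adjustment over 4 tests at 0.05. The study's differential test needs reads and was not run. Whether replicate numbers pair the libraries is not known, so the tests were run without a block and the block is given as an alternative. Python 3.11.15, numpy 2.4.6, pandas 2.3.3, SciPy 1.17.1 and samtools 1.23.1 were used, and the steps were tested on simulated data.

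The regions, gene lists and motifs were chosen with earlier results of these data known. Regions were named as the 8 strongest by mean 0 h percentile never called again (1 of them is not reported here), the 6 strongest called in all 8 libraries, up to 16 near naive or core pluripotency genes (at most 3 a gene), the 10 genes with most lost regions, the strongest region per motif with under 50% repeat for sequences, and 3 regions on each side of the distance threshold. Alternatives covered peak number, coverage, merging, distances, the call at 2 h, motif window, score and GC weighting and left-out replicates.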

Additional observations from a re-analysis of the deposited data

Results flagged for a closer look

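The gap in called share between regions lost by 2 h and regions lost later depended on time by a test of that dependence (F = 1625, exact one-sided permutation p = 0.00952, Benjamini-Hochberg adjusted p = 0.0127). The gap shrank from -60.4 ± 0.0446 points at 4 h, through -43.1 ± 0.0745 and -34.8 ± 0.915 at 8 and 16 h, to -16.0 ± 0.911 points by 24 h (SD over 2 libraries). Over the same interval regions lost later went from 72.1% to 23.1% and regions lost by 2 h from 11.7% to 7.08%, and both groups were selected to have no call at 48 h. The test cannot tell the narrowing apart from that selection. With 2 libraries per time point, outlying single libraries could not be assessed.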

How the results depend on the processing

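Peak lists limit these results to presence or absence above a threshold. Leaving out a replicate number leaves 1 library per time point, so the tests over time could not be computed. The number of regions was then 11550 to 11551, the mean difference from regions lost later -39.5 to -39.1 points with a smallest possible p of 0.125, and the difference between Dox and its removal -0.264 to 0.641 points. With a replicate block the share over time gave F = 35.2 and the difference from regions lost later F = 3733, both with an adjusted exact permutation p of 0.0556 and at the smallest p that the block allows. The numbers did not pair the libraries, with correlations of replicate differences between -0.0305 and 0.0222. Regions with at most 1 call at 2 h gave 59.7% never called again and a Dox difference of 2.33 points (exact permutation p = 0.514), and the 50000 highest peaks gave 75.3% never called again. The TCF difference was 4.88 points in 400 bp, 2.22 with at most 1 call at 2 h, 4.51 with score weighting, 0.971 for the longer pattern and 1.98 to 2.43 without a replicate. The AP-1 difference was -11.1 in 400 bp, -14.8 in the whole region, -7.19 with at most 1 call, -8.45 with score weighting and -7.20 to -7.03 without a replicate. The GATA difference was -10.1 in 400 bp, -16.9 in the whole region, -9.27 with score weighting and -7.87 to -7.03 without a replicate. Whole regions lost later are wider, so these windows differ in length. The other causes were not tested. The motif differences from regions lost later, and their alternatives, were chosen after seeing the data.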
